A study of Mus musculus with 8 samples.

Results

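The genes of the cytosolic ribosomal proteins were examined in RNA-seq data of 8 subcutaneous tumors of Lewis lung carcinoma (LLC), a mouse lung cancer line, taken at day 12 after engraftment. Members were all rows of the count table whose identifier maps to a protein-coding gene named Rpl or Rps with a number and an optional a, x, y or l, together with Rplp0, Rplp1, Rplp2 and Rpsa, and without the Rps6k kinases and the pseudogenes. This rule found 80 of 55487 genes, of which 31 encode proteins of the small (40S) subunit and 49 proteins of the large (60S) subunit. It used no measured value. In 4 tumors the cancer cells were wild-type, and in 4 they carried the label Ago2 knock-out (ΔAgo2). Both groups grew in syngeneic, immunocompetent C57BL/6J mice, 1 tumor per mouse, with no treatment named in the labels and the same batch label. By the methods of the study, the knock-out line was made with a lentiviral CRISPR vector, selected in puromycin and grown from a single cell, so its tumors descend from a single clone. Host cells of each tumor keep their own Ago2.

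Each ribosome holds 1 copy of almost every ribosomal protein, and the mRNAs of these proteins are among the most abundant of a growing cell. Their transcription follows factors such as MYC, and their translation is switched by mTOR and the RNA-binding protein LARP1 through a run of pyrimidines at the 5′ end, the terminal oligopyrimidine (TOP) motif. Argonaute 2 (Ago2) binds small RNAs and represses or cuts matching transcripts. Since bulk tumors were sequenced, fewer cells of a type and less RNA per cell cannot be told apart.

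The annotated start sites were searched for a run of pyrimidines like that of the TOP motif. RefSeq starts (GRCm38.p6) could be matched for 60 of the 80 members. A C followed by 4 bases that are each C or T, read on the gene's own strand, stood exactly at an annotated start in 13 members (21.7%), against 3.01% of 27025 genes of the same table. Within 10 bases of a start it was found in 38 members (63.3%), against 34.4% of all genes. In the windows below, which run from 10 bases before the start over 30 bases in all, capitals mark the longest such run that begins within 10 bases of the start. Rpl28 and Rpl38 had some of the lowest and Rps15a and Rpl5 some of the highest genotype differences described below, and Rps27 and Rps16 are shown as 40S genes with and without the run.
Rpl28 (chr7:4792955-4792984, + strand): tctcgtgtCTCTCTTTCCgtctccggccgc
Rpl38 (chr11:114668570-114668599, + strand): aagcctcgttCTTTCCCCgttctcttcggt
Rps15a (chr7:118116128-118116157, - strand): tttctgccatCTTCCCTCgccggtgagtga
Rps27 (chr3:90213629-90213658, - strand): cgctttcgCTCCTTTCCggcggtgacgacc
Rpl5 (chr5:107900518-107900547, + strand): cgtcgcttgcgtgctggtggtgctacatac
Rps16 (chr7:28350679-28350708, + strand): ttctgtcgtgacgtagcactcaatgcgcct
The run thus stood at the start of members with low genotype differences (Rpl28, Rpl38) and of a member with a high one (Rps15a). It was missing in a member with a high difference (Rpl5) and in one with a low difference (Rps16). These windows are examples picked from the 60 matched members. A window without the run says only that these letters do not stand at the annotated start.

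Total gene counts ran from 7903288 in wild-type tumor 4 to 268564145 in ΔAgo2 tumor 4, and a count of 0 allowed up to 0.43 CPM (counts per 1e+06 of the TMM-adjusted library total) in the shallowest library and 0.010 CPM in the deepest, which covers counting error only. The epithelial markers Krt8, Krt18, Epcam and Cdh1 summed to 497 to 1249 CPM, nearly all of it from Krt8 and Krt18. Epcam was at 0.74 to 4.36 CPM and Cdh1 at 2.44 to 13.99 CPM. Markers of skin keratinocytes were present too, with Krt14 from 2.35 CPM in wild-type tumor 3 to 446 CPM in ΔAgo2 tumor 4. Cdh1 was also highest in ΔAgo2 tumor 4. How much of the epithelial markers came from the cancer cells was not tested. Ago2, the targeted gene, ranged from 129.9 to 195 CPM in wild-type and from 118 to 355 CPM in ΔAgo2 tumors (log2 fold change 0.64, standard error 0.30, adjusted p = 0.205 by edgeR's quasi-likelihood test), so the transcript was on average not lower under the knock-out label, and every direction below rests on the labels. Ago2 protein in the cultured lines was examined in the study by Western blot, which these RNA data cannot check. Of the 16061 genes tested, 560 passed an adjusted p of 0.05. Libraries that stood apart in the ribosomal protein genes were ΔAgo2 tumors 1 and 2 and wild-type tumors 2 and 4, as described below.

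Nearly all members were expressed at a high level. The median over members of the mean TPM (counts scaled for gene length and library total, which allows levels of different genes to be compared) was 1915, and 75 of 80 members had at least 100 TPM. The highest was Rplp1, a protein of the stalk that recruits translation factors to the ribosome, at 15453 TPM, with a range from 8784 in ΔAgo2 tumor 2 to 21752 in ΔAgo2 tumor 1. Rps15 of the 40S subunit followed at 9776 TPM, and then Rpl36 at 8665, Rpl8 at 6602 and Rplp0, the base of the stalk, at 6139 TPM. The order of these last 3 was not beyond their spread: Rpl36 was above Rpl8 in every tumor except ΔAgo2 tumor 2, where it stood at 4527 and Rpl8 at 5601 TPM.

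Together the members took up 11.01, 8.79, 10.6 and 12.7% of all gene counts in wild-type tumors 1 to 4. In ΔAgo2 tumors 1 to 4 they took up 16.4, 6.97, 9.92 and 8.78%. The highest and the lowest share thus both belonged to ΔAgo2 tumors, and the groups overlapped. The means were 10.8 ± 1.6% (SD, n = 4) in wild-type and 10.5 ± 4.1% (SD, n = 4) in ΔAgo2 tumors. Without ΔAgo2 tumor 1 the ΔAgo2 mean was 8.56 ± 1.49% (SD, n = 3), 0.795 times that of wild-type tumors. As a share of all TPM the members made up 17.5 to 20.6% in wild-type and 14.4 to 26% in ΔAgo2 tumors. Rows of ribosomal protein pseudogenes, 303 in number, held only 0.022 to 0.052% of the counts of a library, and 75 of them had 0 counts in all libraries.

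**Figure D1:**
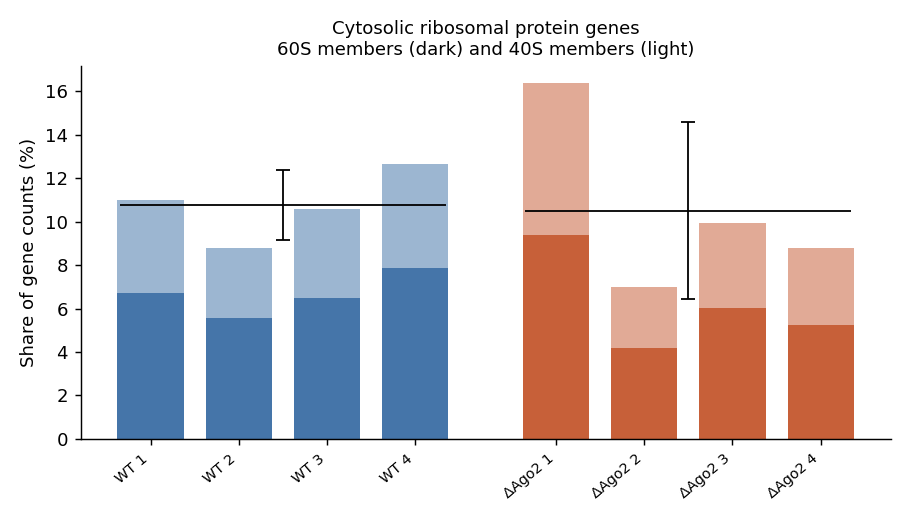
Share of all gene counts (percent, vertical axis) taken by the ribosomal protein genes in each of the 8 tumors, split into 60S members (dark) and 40S members (light); the horizontal lines are the group means and the bars the SD (n = 4). ΔAgo2 tumor 1 has the highest share, 16.4%, and ΔAgo2 tumor 2 the lowest, 6.97%, so the groups overlap.

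No ribosomal protein gene was called as different between genotypes at an adjusted p of 0.05. In simulated counts the same test called only 9.9% of genes given a log2 change of 1, so changes of that size or smaller could go uncalled. Of the 80 members 79 had enough counts to be tested, and 0 were called, against 3.49% of all genes tested (1.36% higher and 2.12% lower in ΔAgo2 tumors). At an unadjusted p under 0.05 there were 4 members, Rpl3l, Rpl28, Rpl36 and Rpl5, where the share over all genes was 26.7%. In 0 members did the 4 wild-type values lie apart from the 4 ΔAgo2 values in CPM, against 16.4% of all genes tested. The median log2 fold change over the members was -0.0018, with 38 positive and 41 negative, and the median over all genes was 0.04. For 40S members the median was 0.08, with 18 of 31 positive, and for 60S members -0.10, with 20 of 48 positive.

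The median over members of the SD of log2 CPM within a group was 0.43 in wild-type and 0.64 in ΔAgo2 tumors, while over all 12157 genes with a mean of at least 1 CPM and a coding sequence it was 0.38 and 0.31. The ΔAgo2 value rested in large part on ΔAgo2 tumor 1: over the other 3 tumors the median SD was 0.29 for the members and 0.16 for all genes.

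Other procedures called some members, and in the lower direction only. DESeq2's Wald test called 1, Rpl3l (7.17% of all genes were called lower by it). limma voom with quality weights, which gives less weight to libraries that deviate, called 17 lower (13% of all genes), with Rpl38, Rpl28 and Rps28 the lowest. Without ΔAgo2 tumor 1, edgeR called 6 lower (4.99% of all genes), among them Rpl28, Rps28 and Rps26, with log2 fold changes of -1.55, -1.31 and -1.15, and the median over members moved to -0.44. Without wild-type tumors 2 and 4 it called 0 (0.471% of all genes were called lower) and the median was 0.02.

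The 5 members with the lowest fold changes were Rpl3l, which is described with the paralogs below, and 4 abundant genes. Rpl28, a 60S protein that budding yeast lacks, was present at 2019, 3270.2, 1697 and 5899.6 CPM in the wild-type and at 2749.5, 879.6, 1366 and 1061 CPM in the ΔAgo2 tumors, in the order 1 to 4. Wild-type tumor 4 was far above the others, and ΔAgo2 tumor 1 lay inside the wild-type range. This gave a log2 fold change of -1.09 (standard error 0.46, adjusted p = 0.163, edgeR). Rpl36, also of the 60S subunit, was at 1174, 1870.3, 938 and 2471 CPM in wild-type and at 1459, 473, 859.9 and 749.6 CPM in ΔAgo2 tumors, a log2 fold change of -0.87 (standard error 0.39, adjusted p = 0.184). Here too tumors 2 and 4 were the highest of the wild-type group and only ΔAgo2 tumor 1 reached into it.

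Rpl38, a 60S protein known for its part in the translation of Hox mRNAs, had levels of 843, 1127, 714 and 2176 CPM in wild-type and of 1481, 305, 606 and 400.1 CPM in ΔAgo2 tumors (log2 fold change -0.80, standard error 0.51, adjusted p = 0.323). Rps16, a 40S protein whose tail reaches the P site, stood at 1446, 2353, 1277 and 3956 CPM in wild-type and at 2643, 717, 1099.7 and 936.7 CPM in ΔAgo2 tumors (log2 fold change -0.74, standard error 0.46, adjusted p = 0.318). In both, as in Rpl28, wild-type tumor 4 was the highest and ΔAgo2 tumor 2 the lowest, but ΔAgo2 tumor 1 came second.

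The 5 highest fold changes showed another arrangement. Rpl39, a very short 60S protein that lines the exit tunnel for the new chain, was at 319, 101, 344 and 229.9 CPM in wild-type and at 741, 275, 369 and 400.4 CPM in ΔAgo2 tumors, a log2 fold change of 0.84 (standard error 0.40, adjusted p = 0.202). Rpl5, which with Rpl11 and the 5S rRNA can bind Mdm2 and stabilise p53, was at 896, 394, 1039.9 and 655 CPM in wild-type and at 1899.9, 1019.96, 1122 and 1229 CPM in ΔAgo2 tumors, a log2 fold change of 0.82 (standard error 0.32, adjusted p = 0.143). In Rpl5 the groups were separated except for wild-type tumor 3, which lay just above ΔAgo2 tumor 2.

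Rps15a of the 40S subunit stood at 745, 196, 756 and 362 CPM in wild-type and at 1504, 561, 817 and 715 CPM in ΔAgo2 tumors (log2 fold change 0.80, standard error 0.44, adjusted p = 0.258). Rpl36a of the 60S subunit stood at 344, 105, 348 and 233 CPM in wild-type and at 703, 285, 439 and 345 CPM in ΔAgo2 tumors (log2 fold change 0.78, standard error 0.39, adjusted p = 0.220). Rps27a, made as a fusion with ubiquitin, stood at 879, 272, 1081 and 612 CPM in wild-type and at 2026, 769, 956 and 953 CPM in ΔAgo2 tumors (log2 fold change 0.73, standard error 0.43, adjusted p = 0.290). In all 5 of these genes wild-type tumor 2 was the lowest of the 8 tumors and wild-type tumor 4 the second lowest, and ΔAgo2 tumor 1 was the highest.

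**Figure D2:**
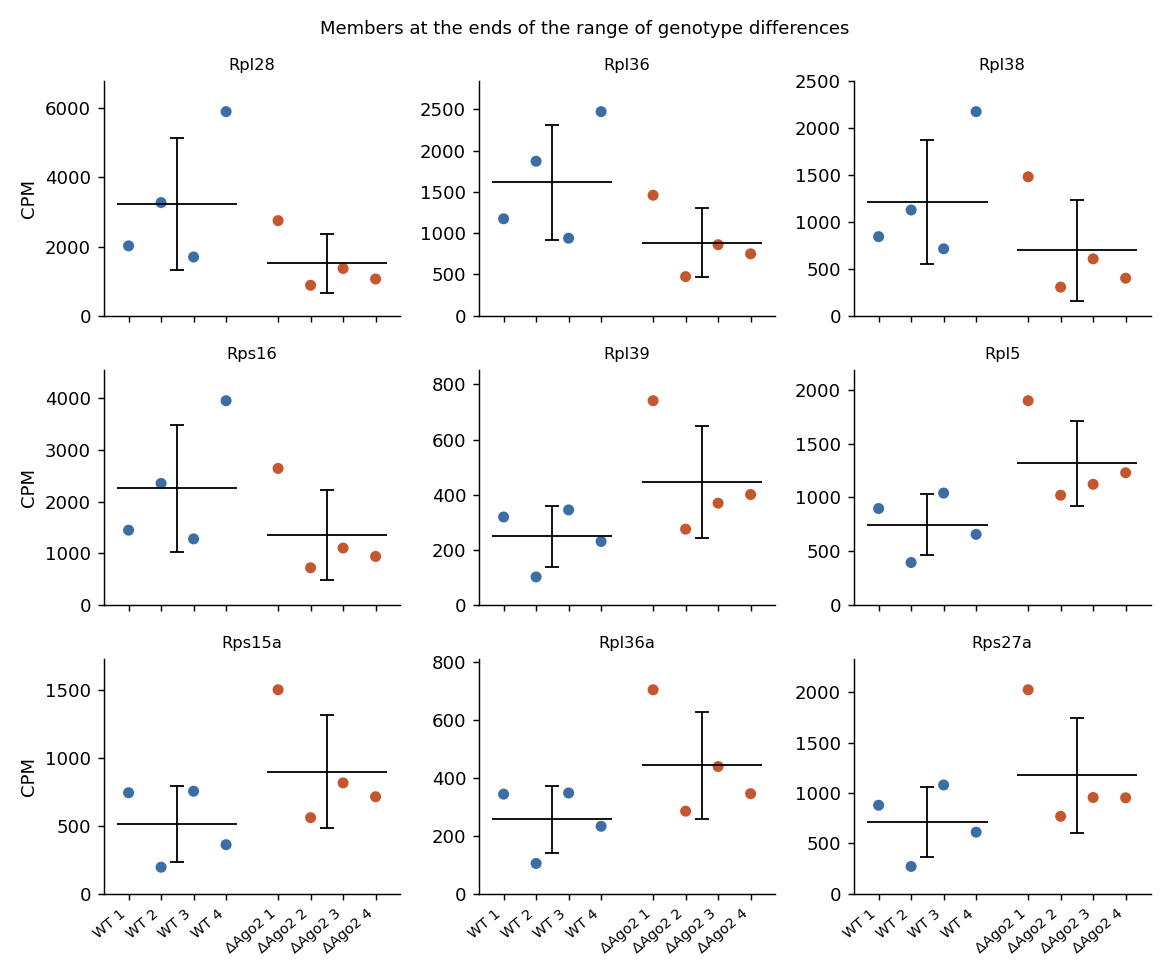
CPM (vertical axes, from 0) of 9 members with the lowest (Rpl28, Rpl36, Rpl38, Rps16) and highest (Rpl39, Rpl5, Rps15a, Rpl36a, Rps27a) log2 fold changes in the 4 wild-type (WT) and 4 ΔAgo2 tumors; points are tumors, lines group means and bars the SD (n = 4). Wild-type tumor 4 is the highest of all tumors in the first 4 genes and below wild-type tumors 1 and 3 in the last 5.

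Across the 77 members with a mean of at least 1 CPM, single tumors rather than genotypes stood out. ΔAgo2 tumor 1 was above the mean of the 8 tumors in 75 of the 77 and was the highest tumor in 53, with a median deviation of 0.86 on the log2 scale. ΔAgo2 tumor 2 was above the mean in 1, Rpl5, and was the lowest tumor in 49, with a median deviation of -0.67. Wild-type tumor 4 was the highest in 22 and wild-type tumor 2 the lowest in 27. Wild-type tumors 1 and 3 deviated little, with medians of 0.08 and 0.05. A principal component analysis put 57.7% of the variance on a component with ΔAgo2 tumor 1 at one end and ΔAgo2 tumor 2 at the other, and 34.1% on a second component with wild-type tumors 2 and 4 at one end.

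Markers of some other cells also differed in ΔAgo2 tumor 1. The summed level of 10 leukocyte markers was 1898 CPM in it, whereas the other 7 held 1048 to 1430 CPM, and 6 T cell markers summed to 34.4 CPM there and to 6.94 to 21.6 CPM elsewhere. The leukocyte list was split, with 5 of 10 genes higher in ΔAgo2 tumor 1 than in every other tumor (Fcer1g, Tyrobp, Cd52, Arhgdib and Laptm5) and the other 5, among them the defining marker Ptprc, within the range of the rest. Of the T cell markers 5 of 6 were highest there. Fibroblast markers, 8 genes, summed to 2249 CPM there and to 4154 to 7214 CPM elsewhere, a gap carried mostly by Col3a1, a fibrillar collagen. Without it, a choice made after its values were seen, the sums were 842 CPM there and 944 to 2539 CPM elsewhere, and 4 of the 8 genes were lowest there. In all 3 lists every gene had counts. Other lists stood out less. Within the range of the other tumors lay 9 of 10 skeletal muscle, 7 of 8 keratinocyte, 5 of 6 B and plasma cell and 3 of 5 red blood cell markers. Of 5 endothelial markers 1 was highest in ΔAgo2 tumor 1, 2 were lowest and 2 lay within the range. Epithelial markers, 4 genes, summed to 1240 CPM in ΔAgo2 tumor 1 and 1249 CPM in wild-type tumor 4, the pair of tumors with the highest ribosomal share. The rest held 497 to 1002 CPM. The epithelial list was split too. In wild-type tumor 4 Krt18 was the highest of the 8 tumors, at 845 CPM, but Cdh1 was the lowest, at 2.44 CPM. Krt8 there (401 CPM) was below ΔAgo2 tumors 1, 3 and 4, and Epcam was at 0.86 CPM. In ΔAgo2 tumor 1 only 1 of the 4 genes, Krt8, was the highest of all tumors. The tumor's mRNA also leaned to short genes: over all 12157 genes its deviation from the mean correlated with coding length at a Spearman rho of -0.62, and over the 77 members at -0.50. The part of cancer cells, leukocytes, T cells, fibroblasts and gene length in the high ribosomal protein level of this tumor was not tested. The part of gene length in its marker sums was not tested either, so these sums need not reflect cell content.

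The members did not move as 1 block in wild-type tumors 2 and 4. The deviation of a member from its mean over the tumors went with the GC content of its coding sequence, at a Spearman rho over the 77 members of 0.59 in wild-type tumor 2 and 0.63 in wild-type tumor 4. In wild-type tumors 1 and 3 and in ΔAgo2 tumors 2, 3 and 4 rho was negative, from -0.63 to -0.43, and in ΔAgo2 tumor 1 it was -0.21. Over all 12157 genes the same relation was 0.67 and 0.66 in wild-type tumors 2 and 4. It was -0.18 and -0.27 in wild-type tumors 1 and 3. In ΔAgo2 tumors 1 to 4 it was -0.01, -0.56, -0.49 and -0.56. These correlations share the libraries and are given as descriptions. Wild-type tumors 2 and 4 were also the shallowest libraries, at 20683668 and 7903288 counts, and the others held 31846706 to 268564145. With counts thinned to the shallowest library, fold change and GC content over 76 tested members correlated at a rho of -0.50. What made these libraries shallow, and its part in the pattern, was not tested.

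**Figure D3:**
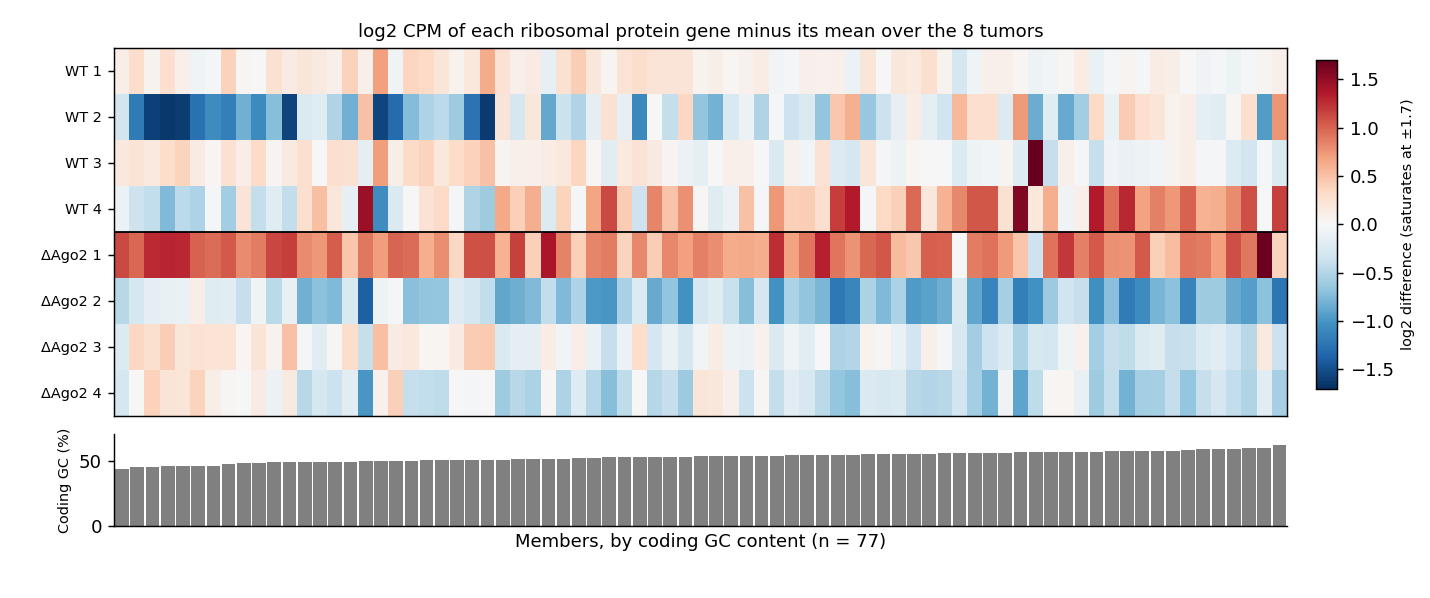
Difference of each member's log2 CPM from its mean over the 8 tumors (colour, red above and blue below; rows are the 4 wild-type, WT, and 4 ΔAgo2 tumors) for 77 members ordered by coding GC content, which the grey bars give in percent. ΔAgo2 tumor 1 is above the mean in 75 members, wild-type tumor 4 changes from pale or blue at low GC to red at high GC (median 0.78 in the 26 members of highest GC), and wild-type tumor 2 from blue to near the mean (median 0.04).

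Cutting the members by coding GC content showed the size of this. Among the 26 members with the lowest GC content (43.5 to 50.6%), 20 had a positive fold change and the median was 0.36. In the 25 next higher, 11 were positive and the median was -0.01, and in the 26 with the highest GC content (54.8 to 61.6%) 5 were positive and the median was -0.37. At low GC content the median deviation was -0.94 in wild-type tumor 2 and -0.17 in wild-type tumor 4, and at high GC content 0.04 and 0.78. Rpl38 and Rps29 departed from this order. Rpl38, with 49.5% GC, had the lowest fold change of the 26 at low GC content, and Rps29, with 59.5% GC, was at 568 to 1131 CPM in wild-type and 676 to 3497 CPM in ΔAgo2 tumors.

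Over the 79 tested members the fold change correlated with coding GC content at a Spearman rho of -0.52, and over all tested genes with a coding sequence at -0.55. After the trend of each library on GC content was removed, rho over the members was -0.17, and without wild-type tumors 2 and 4 it was -0.12. Over all tested genes with a coding sequence these values were -0.04 and -0.25, so a relation remained without these libraries. Removal of the trend moved Rpl36 from -0.87 to -0.20, Rpl38 from -0.80 to -0.25 and Rpl5 from 0.82 to 0.34, while Rpl28 stayed at -0.997 and Rpl39 at 0.72, and 0 members were called in that fit.

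**Figure D4:**
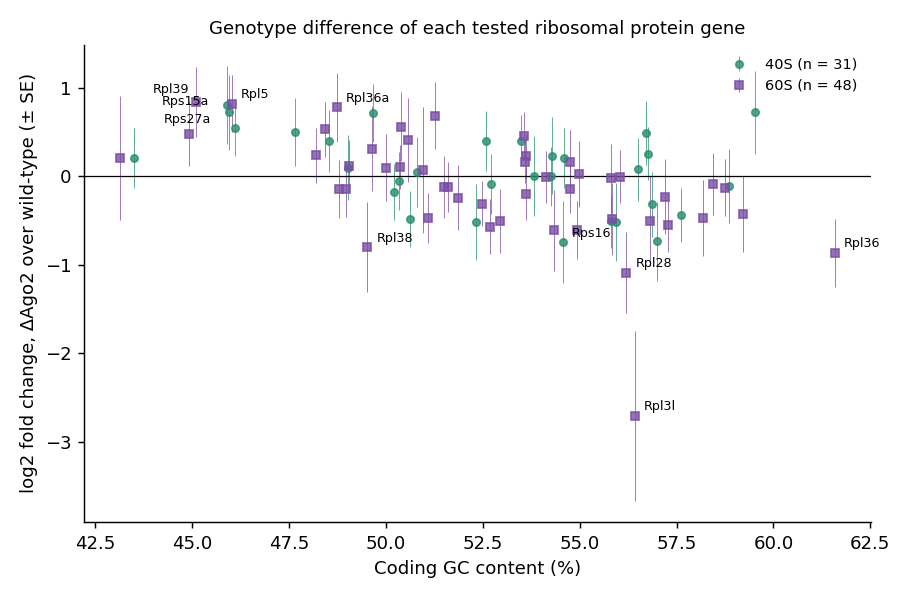
log2 fold change of each of the 79 tested members (vertical axis, ΔAgo2 over wild-type, with its standard error) against the GC content of its coding sequence in percent, for 31 genes of the 40S and 48 of the 60S subunit. Most points left of 50% lie above 0 and most right of 55% lie below it; the lowest point is Rpl3l at -2.71.

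The balance of the subunits lay apart between the genotypes. Summed over members, 40S TPM was 0.579, 0.514, 0.573 and 0.531 times 60S TPM in wild-type tumors 1 to 4. In ΔAgo2 tumors 1 to 4 the ratio was 0.690, 0.625, 0.592 and 0.620, so every ΔAgo2 tumor lay above every wild-type tumor. The means were 0.549 ± 0.032 and 0.632 ± 0.042 (SD, n = 4 each), and no test was made of a sum over chosen members. With summed counts the groups also lay apart, at 0.580 to 0.636 in wild-type and 0.641 to 0.745 in ΔAgo2 tumors. They overlapped after removal of the GC trend, at 0.599 to 0.641 and 0.631 to 0.742, and without the 5 members of highest TPM, at 0.669 to 0.719 and 0.715 to 0.840. The separation therefore rested on a narrow gap, and in each of these versions ΔAgo2 tumor 1 had the highest ratio.

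**Figure D5:**
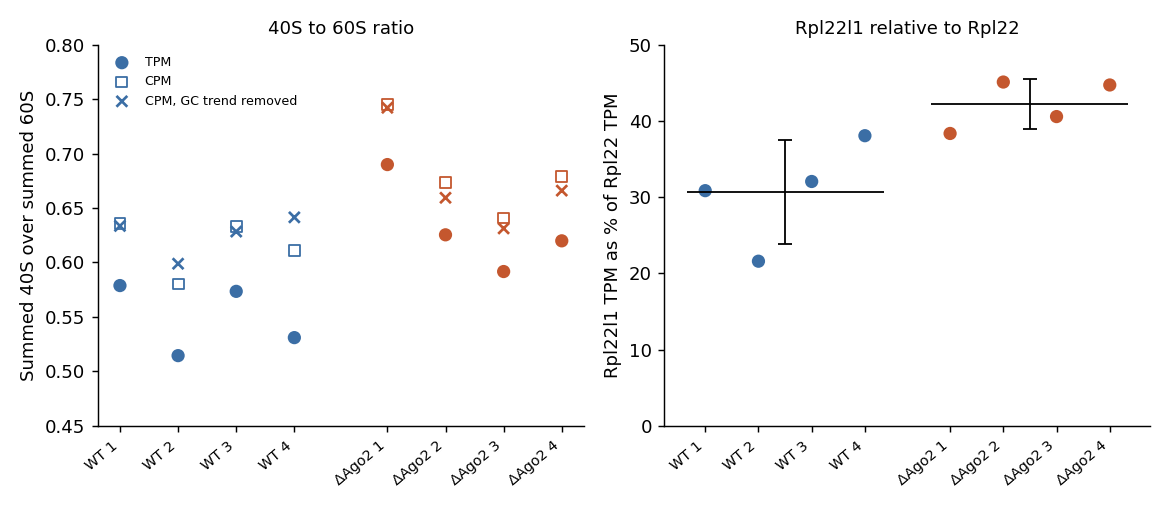
Left, summed 40S over summed 60S signal per tumor from TPM (filled circles), CPM (open squares) and CPM with the GC trend of the library removed (crosses); the axis does not start at 0. Right, Rpl22l1 TPM as a percentage of Rpl22 TPM, with group means and SD (n = 4); the TPM ratio and the Rpl22l1 percentage are higher in every ΔAgo2 than in every wild-type (WT) tumor, while the crosses overlap.

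Some ribosomal proteins have a second gene with a restricted pattern of expression. Rpl3l replaces Rpl3, a protein next to the peptidyl transferase center, in striated muscle. Its levels were 0.75, 0.24, 8.9 and 1.00 CPM in the wild-type and 0.53, 0.15, 0.60 and 0.48 CPM in the ΔAgo2 tumors. Wild-type tumor 3 alone was high. The log2 fold change of -2.71 (standard error 0.96, adjusted p = 0.117, edgeR) became -0.54 without wild-type tumor 3. The 10 skeletal muscle markers summed to 3592 CPM in wild-type tumor 3 and to 51.0 to 477 CPM in the other 7 tumors. All 10 were detected, 1 was called lower in ΔAgo2 tumors, and their part in the Rpl3l value was not tested. Even in wild-type tumor 3 Rpl3l reached only 0.62% of the TPM of Rpl3.

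The testis paralog Rpl10l had 0 counts in every library, and Rpl39l, also best known from male germ cells, stood at 0.25 to 0.81 CPM in wild-type and 0.12 to 1.33 CPM in ΔAgo2 tumors, or 0.077 to 1.38% of Rpl39 TPM. Rps27l, which p53 can induce, was far more abundant, at 92.8 to 130.3 CPM in wild-type and 82.6 to 252 CPM in ΔAgo2 tumors. It made up 13.2 to 20.1% of Rps27 TPM in wild-type and 17.9 to 24.0% in ΔAgo2 tumors, and the groups overlapped.

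Under a wider reading of the naming rule, 5 further genes with other suffixes would be members: Rps3a1, Rpl22l1, Rpl36al, Rpl7l1 and Rps27rt. Among these 5 only Rpl22l1, the paralog of the RNA-binding 60S protein Rpl22, had values that lay apart in CPM. Over all genes tested the groups lay apart in 16.4%. Its levels were 66.1, 21.8, 86.1 and 61.3 CPM in the wild-type and 149.6, 92.1, 100.7 and 104.8 CPM in the ΔAgo2 tumors, and the log2 fold change of 0.93 (standard error 0.36) did not pass adjustment (adjusted p = 0.135, edgeR). Relative to Rpl22 its TPM was 30.8, 21.6, 32.0 and 38.1% in wild-type and 38.3, 45.1, 40.6 and 44.7% in ΔAgo2 tumors. The ΔAgo2 tumors were thus all higher, by a margin of less than 1 percentage point between wild-type tumor 4 and ΔAgo2 tumor 1. With its coding GC content of 39.9%, Rpl22l1 went from 0.93 to 0.29 when the GC trend was removed. Rpl22 has a coding GC content of 48.4%, and the percentage was not computed with the GC trend removed.

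Rpl36al made up 0.25 to 1.95% of Rpl36a TPM and Rpl7l1 4.38 to 13.3% of Rpl7 TPM, with overlapping groups. Rps3a1, the mouse gene of a core 40S protein, was at 554 to 1868 CPM in wild-type and 1278 to 3558 CPM in ΔAgo2 tumors. Rps27rt, a near copy of Rps27, stayed at 2.15 to 2.87 CPM in wild-type and 1.32 to 4.39 CPM in ΔAgo2 tumors. Whether reads were shared between such copies depends on how the authors counted reads that match several places, which is not stated.

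The proteins of the stalk and of the laminin receptor followed the tumors described above. Rplp0 was at 3025 to 4265 CPM in wild-type and 2409.9 to 5885 CPM in ΔAgo2 tumors. Rplp1, its stalk partner, was at 2640.03, 2847, 2835 and 5261 CPM in wild-type and at 4948, 1197, 2021 and 1669 CPM in ΔAgo2 tumors, and Rplp2 was at 1491, 2038, 1233 and 4106 CPM and at 3323, 782, 1080.4 and 1064 CPM. In both partners wild-type tumor 4 and ΔAgo2 tumor 1 stood well above the other 6 tumors. Rpsa, a 40S protein also known as the laminin receptor, was at 1496 to 2882 CPM in wild-type and 2133 to 6194 CPM in ΔAgo2 tumors, with ΔAgo2 tumor 1 alone above 2882 CPM.

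A few core members stood below the other core members in TPM. Their counts were not all low: Rpl13a had 1170 to 15369 counts per library. Rpl24, a 60S protein present in every cell's ribosomes, had a mean of 0.83 TPM and ranged from 0.075 to 1.00 CPM, lower than any other tested member. In the annotation (GENCODE M21) 47.0% of its exonic bases overlap a second gene on the same strand, Gm28037. For Rps10, at 11.4 TPM, 20.6% overlap RPS10-NUDT3, and for Rpl13a, at 112 TPM, 35.4% overlap Gm45713. These 3 overlapping genes each had 0 counts in all libraries. Levels of these genes are uncertain wherever reads in overlapping genes were left unassigned, which was not tested.

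Of the other ribosomal proteins that the rule leaves out by name, Fau, a ubiquitin-like protein fused to a 40S protein, was at 1681 to 4445 CPM in wild-type and 833 to 3161 CPM in ΔAgo2 tumors. Rack1, a signaling scaffold on the 40S subunit, was at 2082 to 2982 CPM in wild-type and 1897 to 4626 CPM in ΔAgo2 tumors. Both overlapped between groups.

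Genes that make, control or resemble the ribosomal proteins gave few calls as well. Over the 219 of them that were tested 0.457% were called and 13.7% had an unadjusted p under 0.05, against 3.49% and 26.7% of all genes. Of 25 tested TOP mRNAs other than those of ribosomal proteins, such as elongation factors, 0 were called by edgeR, 0 had an unadjusted p under 0.05 and 14 were positive, with a median log2 fold change of 0.01. Of 57 genes of RNA polymerase I and ribosome biogenesis 0 were called, 7 had an unadjusted p under 0.05 and 29 were positive (median 0.05). The 77 tested genes of mitochondrial ribosomal proteins, which form a separate ribosome, held 0 calls, 8 with an unadjusted p under 0.05 and 26 positive values (median -0.10). Of 25 genes of the mTOR, LARP1 and MYC pathways 0 were called and 7 had an unadjusted p under 0.05 (median 0.0031), and of 22 genes of ribosomal protein chaperones and quality control these numbers were 0 and 5 (median 0.08).

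Of 13 tested spliced hosts of small nucleolar RNAs, many of which carry a TOP motif, 1 was called, Snhg1, a host of box C/D RNAs that guide rRNA methylation. Its levels were 18.3, 14.0, 22.2 and 20.6 CPM in the wild-type and 46.2, 41.7, 26.6 and 36.5 CPM in the ΔAgo2 tumors, so that the groups did not overlap. It rose by a log2 fold change of 1.01 (standard error 0.24, adjusted p = 0.0469, edgeR), close to the threshold, and this became 0.24 (adjusted p = 0.686) in the fit without the GC trend. The median over the 13 host genes was 0.19, with 10 positive.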

How the data were processed

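RNA was measured in 8 tumors, grouped by the genotype and replicate number in the sample titles. Per the labels, libraries came from a stranded mRNA kit, sequenced paired-end at 100 bases, and the submitters' processing notes name STAR and mm10. The authors deposited raw counts per gene, with no normalization, and TPM values, scaled for gene length and library total. Strand setting, annotation release and the treatment of reads that match several places are not given in the sources used here for these tumors.

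Identifiers were matched to GENCODE M21 (99.29% matched with their version). Counts were analysed with edgeR 4.0.16 in R 4.3.3 (filterByExpr, TMM, quasi-likelihood test, no covariate, Benjamini-Hochberg over all 16061 genes tested, threshold 0.05). CPM used TMM-adjusted totals, and deviations were taken from log2(CPM + 0.5). GC and length trends per library entered as offsets, by transcript GC content and exonic length, fitted where a gene averaged 50 counts or more. Alternatives were limma 3.58.1 (voom with quality weights, and log2(TPM + 1) or log2(TPM + 0.1) over genes with at least 0.5 TPM in 4 libraries), DESeq2 1.42.0, other scalings and filters, thinning to the shallowest library, the replicate number as a block, and leaving out libraries. Those without wild-type tumors 2 and 4, and those of the 40S to 60S ratio, were chosen after seeing the data. The procedure was tested on simulated counts. It called 9.9% of 101 genes given a log2 change of 1 and 70.7% of 92 given a change of 2, with 3 false calls. With no gene changed it called 0 of 15765. A count of 0 called members therefore does not show that the members were unchanged.

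Members and lists were chosen with earlier results of these data known. Genes named were Ago2, the 5 highest and 5 lowest fold changes among members of at least 1 CPM, the 5 members with the highest and 3 with the lowest TPM among those tested, stalk and laminin receptor genes, paralogs with their parents, ribosomal proteins outside the naming rule, and called genes of the related lists. Rps10, Rpl13a, Rps29, the members called by other procedures and the overlapping genes were named after their values were seen. Some genes are not reported here.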

Additional observations from a re-analysis of the deposited data

Results flagged for a closer look

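Of 76 groups of 4 tumors examined, 12 held a tumor whose gap to the nearest of the others exceeded the 95% critical value of Dixon's test. Independent and unselected groups would give about 3.8 by chance. Many of these genes were chosen for their fold changes or after their values were seen, so 12 is not a tested excess. Several of the 12 are the same tumors seen in different genes.

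In ΔAgo2 tumor 1 the level lay far above the other 3 ΔAgo2 tumors for Rps27a (2026 CPM against 769 to 956), Rplp2 (3323 against 782 to 1080.4), Rpsa (6194 against 2133 to 2762), Rps15 (4506 against 1168 to 1680.2) and Rps27l (252 against 82.6 to 98.2). The mean log2 CPM of the small nucleolar RNA host genes was 4.48 there and 3.91 to 3.99 in the others.

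In wild-type tumor 4, the shallowest library, Rplp1 (5261 CPM against 2640.03 to 2847), Rpl8 (4837 against 2759.5 to 3101) and Fau (4445 against 1681 to 2029.7) stood apart from the other wild-type tumors, and the mean log2 CPM of the host genes was 4.39 against 3.76 to 3.84.

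Rps29 was low in wild-type tumor 2, at 568 CPM against 1071 to 1131 CPM. Rpl3l was high in wild-type tumor 3, at 8.9 CPM against 0.24 to 1.00 CPM.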

How the results depend on the processing

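The count of 0 called members held under 21 of 24 alternatives and was 1 with DESeq2, 17 with voom and quality weights and 0 to 6 when 1 library was left out, the 6 without ΔAgo2 tumor 1. The medians over members, 40S and 60S genes moved by less than 0.51 under each alternative, the pooled SD of the tumors' median deviations. That SD is wide, since it includes ΔAgo2 tumors 1 and 2, so staying within it does not show that the medians were stable. Their signs changed with the alternative. With voom and quality weights they were -0.36, -0.34 and -0.40. When 1 library was left out they ran from -0.44 to 0.15, -0.41 to 0.26 and -0.50 to 0.09. With 1 library left out, the difference in share of counts ran from -2.20 to 0.93 percentage points, and that in the 40S to 60S ratio from 0.063 to 0.096. The difference in ratio was 0.049 with the GC trend removed and 0.104 under the wider reading of the naming rule. For the 12 named genes other than Ago2, 254 of 274 values kept their direction and side of the threshold, 6 were now past it and 13 no longer. The 13 are all of Snhg1, among them upper quartile scaling (adjusted p = 0.0523), the block (0.176) and every single library left out except wild-type tumor 3 and ΔAgo2 tumor 1. The sign of Rps16 changed without wild-type tumors 2 and 4, to 0.0146. Ago2 passed the threshold with voom and quality weights, at 0.86 (adjusted p = 0.0140), and without ΔAgo2 tumor 1, at 0.85 (0.0441), with a range of 0.38 to 0.85 when 1 library was left out. The 1 call among 219 related genes (0.457%, against 3.49% of all genes) became 0 with upper quartile scaling, the replicate block, either GC correction, limma on TPM, or without wild-type tumors 2 and 4, 11 with DESeq2 (5.02%, against 14.2%), 55 with voom (25.1%, against 27.9%), 3 with no count filter (1.36%, against 3.24%), 5 with the length trend removed (2.28%, against 7.27%), and 0 to 25 when 1 library was left out, the 25 without ΔAgo2 tumor 1 (11.4%, against 11% of all genes). The causes were not tested. Replicate numbers did not pair the tumors: same-numbered tumors had correlated deviations of -0.24, 0.10, -0.04 and -0.29, and under the block 0 members were called, with a median of -0.14. With counts thinned to the shallowest library Rpl3l was not tested. Depth limits the lowest members, Rpl24, Rpl39l and Rpl3l, most in wild-type tumor 4, where a count of 0 allows up to 0.43 CPM.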
